A study of Saccharomyces cerevisiae with 6 samples.

Results

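Expression in budding yeast carrying the TBP variant TBP-Y185C was compared with expression in the mot1-14 mutant, on 4 two-colour oligonucleotide arrays out of the 6 arrays of the study. The TBP-Y185C strain was strain AY138 with plasmid pTBP-Y185C, the mot1-14 strain was AY138 with plasmid pMOT244, and the wild-type MOT1 strain (WT) that served as the common partner on every array was AY138 with plasmid pAV20. All 3 are labelled post-FOA, so they share that selection and the parent strain, and they were grown in rich medium (YPD) at 30 °C to an optical density of about 1.0. Each allele was thus on a plasmid, and the labels do not say what the chromosomal MOT1 and SPT15 loci held. TBP-Y185C and mot1-14 RNA never met on an array: each strain was hybridised against WT on 2 arrays with the dyes exchanged. The comparison was therefore the log2 ratio of TBP-Y185C over WT minus the log2 ratio of mot1-14 over WT, with arrays of like dye orientation matched. Of 6256 gene probes, 6126 had a value on all 4 arrays and entered the test. Another bypass strain, TBP-F207L (AY138 with plasmid pTBP-F207L), shared the model and is used below mainly where it shows a difference from TBP-Y185C. Changes given without it are not thereby shown to be particular to TBP-Y185C or to be shared. Many of the large ones had the same direction in TBP-F207L, but often not the same size. Of the 73 genes called by at least 2-fold, 46 differed between the bypass strains (limma, adjusted p under 0.05). The share over all genes was not counted.

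The TATA-binding protein (TBP, encoded by SPT15) nucleates the transcription machinery at promoters of all 3 nuclear RNA polymerases. Mot1 is a Swi2/Snf2-family ATPase that takes TBP off DNA, and by moving TBP between promoters it represses some genes and is needed for the full expression of others. Bypass alleles of TBP let cells live without the otherwise essential Mot1, and the comparison with mot1-14 asks which transcripts differ between a strain with a damaged Mot1 and a strain in which an altered TBP stands in for it.

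Signals were well over background on all 6 arrays, by a median factor of 8.05 to 22.7 in the red channel and of 6.74 to 10.8 in the green one. Across genes, the log2 ratios of the 2 arrays of a strain correlated at r = 0.957 in TBP-Y185C and 0.925 in mot1-14, and the differences from the 2 dye orientations at 0.935. Genes are not independent replicates in these coefficients. Nothing in the labels ties the 2 arrays of a strain to separate cultures, and the p-values therefore reflect variation from array to array, which may be purely technical. The arrays of each mutant shared a slide of their own, so slide and strain cannot be told apart, and 2 arrays per strain limit the precision.

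TBP-Y185C cells differed from mot1-14 cells at many genes by small amounts and at few genes by large ones. Of the 6126 genes tested, 1577 were higher in TBP-Y185C (25.7%) and 1500 were lower (24.5%) at an adjusted p under 0.05, the threshold meant below by "passed" (limma, Benjamini-Hochberg over all genes tested). Those called by at least 2-fold were 37 higher genes (0.604%) and 36 lower genes (0.588%). The median size of the difference was 0.157 on the log2 scale over all genes tested and 0.294 over those that passed, and the smallest that passed was 0.129. Without the term for dye orientation the counts were 535 higher and 435 lower, so counts of small differences below rest on that term. Member counts of the gene lists below are to be read against the shares of 25.7% and 24.5%. For the 73 genes past 2-fold, the 2 TBP-Y185C arrays lay wholly on one side of the 2 mot1-14 arrays, and none was saturated or at background in either strain. The arrays also did not overlap for 3650 of all 6126 genes tested and for 2669 of the 3077 that passed. Genes chosen by size and adjusted p nearly always show such a gap, so it is no separate support.

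WT RNA was on both slides, and its single-channel values, after quantile normalization between arrays, were subtracted between slides with dye orientations matched. Spot and slide effects cancel within the ratios used for the strains but need not cancel in single channels. The 2 measures are therefore not alike, and their widths compare only roughly. The standard deviation across genes was 0.333 for TBP-Y185C minus mot1-14 and 0.158 for WT minus WT. Only 9 genes differed by 2-fold or more between the WT channels, and none of them was among the 73. PHO12, an acid phosphatase gene, was the one 2-fold gene whose WT difference (-0.84) was over 0.5 times its difference between strains (-1.01).

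**Figure D1:**
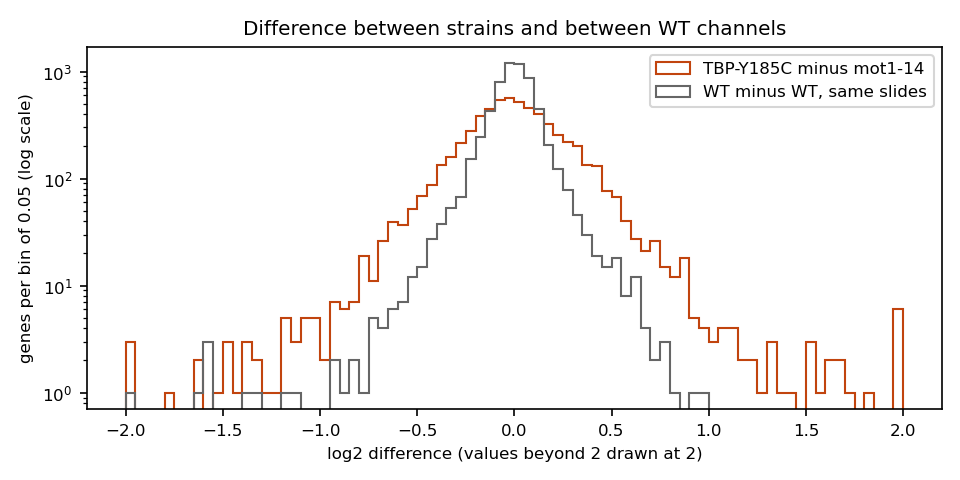
Distribution over 6126 genes of the log2 difference TBP-Y185C minus mot1-14 and of WT minus WT between the same arrays (x axis, log2; y axis, genes per bin, log scale). The strain difference is the wider of the distributions, with a standard deviation of 0.333 against 0.158. The WT values are single channels and the strain difference uses ratios, so these are unlike measures.

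The genes that define the strains differed widely. MOT1 (YPL082C) was at log2 ratios over WT of -3.73 and -3.28 on the 2 TBP-Y185C arrays, and at 2.24 and 2.11 on the 2 mot1-14 arrays. The strains were thus on opposite sides of WT on every array, with a difference of -5.68 (SE 0.42, adjusted p = 0.000122), or 51.3-fold higher in mot1-14. The authors' processed log ratios, which the main processing does not use, gave -7.21. SPT15 (YER148W), the TBP gene, had ratios of 4.28 and 3.87 in TBP-Y185C, and of -0.49 and -0.23 in mot1-14. All arrays of TBP-Y185C lay far above WT and those of mot1-14 slightly below it, a 21.7-fold difference (log2 4.44, SE 0.14, adjusted p = 3.8e-06). The WT channels themselves differed at SPT15, by -0.90 (beside TBP-Y185C minus beside mot1-14), and without division by WT the difference was 3.53.

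PEA2, a polarity gene that lies next to SPT15 in the reference assembly, was at 3.46 and 3.63 in TBP-Y185C and at -0.38 and -0.26 in mot1-14, a difference of 3.86 (SE 0.05, adjusted p = 7.62e-08). The neighbour on the other side of SPT15, SCC4, a cohesin-loading gene, was at -0.36 in TBP-Y185C and -0.24 in mot1-14, and its difference of -0.13 did not pass (adjusted p = 0.0736). Beyond PEA2, the cell wall gene SPI1 differed by 0.46 (adjusted p = 0.0134). High signal next to SPT15 was therefore seen at PEA2 and not at SCC4.

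Among the 6 auxotrophic marker genes, 3 were higher, 1 was lower and 2 did not pass. TRP1, an enzyme of tryptophan synthesis, had log2 ratios of 5.36 and 4.29 in TBP-Y185C and of -0.50 and -0.68 in mot1-14, the largest rise of any gene (5.42, SE 0.18, adjusted p = 4.14e-06). LEU2, an enzyme of leucine synthesis, was above WT in both strains, at 1.87 and 2.03 in TBP-Y185C and at 2.92 and 3.11 in mot1-14, so it was 2.09-fold higher in mot1-14 (log2 difference -1.07, SE 0.05). LYS2 (0.38) and ADE2 (0.26) rose slightly, while HIS3 (-0.01) and URA3 (-0.20, adjusted p = 0.057) did not pass. HIS3 was well above background on 0 of 2 TBP-Y185C and 1 of 2 mot1-14 arrays, so its value cannot show unchanged expression. The genes on either side of TRP1 (SOK1, 0.13, and GAL3, 0.06), of LEU2 (YCL021W-A, 0.02, and NFS1, 0.13) and of MOT1 (SEN54, -0.07, and RPS9A, 0.03) did not pass. One gene further out, MAF1 beyond SOK1 (0.55, adjusted p = 0.000501) and BRO1 beyond SEN54 (0.19, adjusted p = 0.0362) were higher, and the other second neighbours of TRP1, LEU2 and MOT1 did not pass. Plasmid-borne copies and chromosomal transcription of these genes cannot be told apart on these arrays.

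Genes of leucine synthesis were among the largest remaining rises. Leucine is made from the valine precursor by isopropylmalate synthase (Leu4), isomerase (Leu1) and dehydrogenase (Leu2), and the zinc cluster protein Leu3 activates several of these genes when isopropylmalate accumulates. Of 13 genes of leucine, isoleucine and valine synthesis, 9 were higher in TBP-Y185C, 3 were lower and 1 did not pass, with a median difference of 0.54 against -0.01 over all genes tested.

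LEU1 had log2 ratios of 2.84 and 2.86 in TBP-Y185C and of -0.44 and -0.37 in mot1-14. Its arrays repeated closely, and it was 9.52-fold higher in TBP-Y185C (log2 3.25, SE 0.05, adjusted p = 1.15e-07). OAC1, a mitochondrial carrier of oxaloacetate and isopropylmalate, was at 2.16 and 2.13 in TBP-Y185C and at -0.90 and -0.77 in mot1-14 (difference 2.98, SE 0.06, adjusted p = 5.16e-07). Both genes were thus above WT in one strain and below it in the other. LEU4 was at 1.90 and 1.92 in TBP-Y185C and at 0.33 and 0.24 in mot1-14, BAT1, the mitochondrial branched-chain aminotransferase, at 1.63 and 1.34 against -0.15 and -0.48, and ILV2, acetolactate synthase, at 1.39 and 1.21 against -0.23 and -0.34. Their differences were 1.62, 1.80 and 1.59 (SE 0.05 each, adjusted p at most 4.14e-06).

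The other 4 higher members rose less: ILV5 by 0.62, ILV3 by 0.54, LEU9 by 0.45 and ILV6 by 0.20. The cytosolic aminotransferase BAT2 fell by 0.39 and threonine deaminase, ILV1, fell by 0.42, and LEU2 was also lower, as described above. LEU3 itself was at 0.17 and -0.02 in TBP-Y185C and at 0.11 and -0.13 in mot1-14, and its difference of 0.08 did not pass (adjusted p = 0.188). LEU1, OAC1 and ILV2 averaged 2.85, 2.14 and 1.30 over WT in TBP-Y185C, below the 3.24, 2.46 and 1.77 of TBP-F207L, and the difference between the bypass strains passed for each (-0.40, -0.32 and -0.47, adjusted p at most 0.00556). For LEU4 and BAT1 that difference did not pass (0.11 and 0.05, SE 0.05 each).

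**Figure D2:**
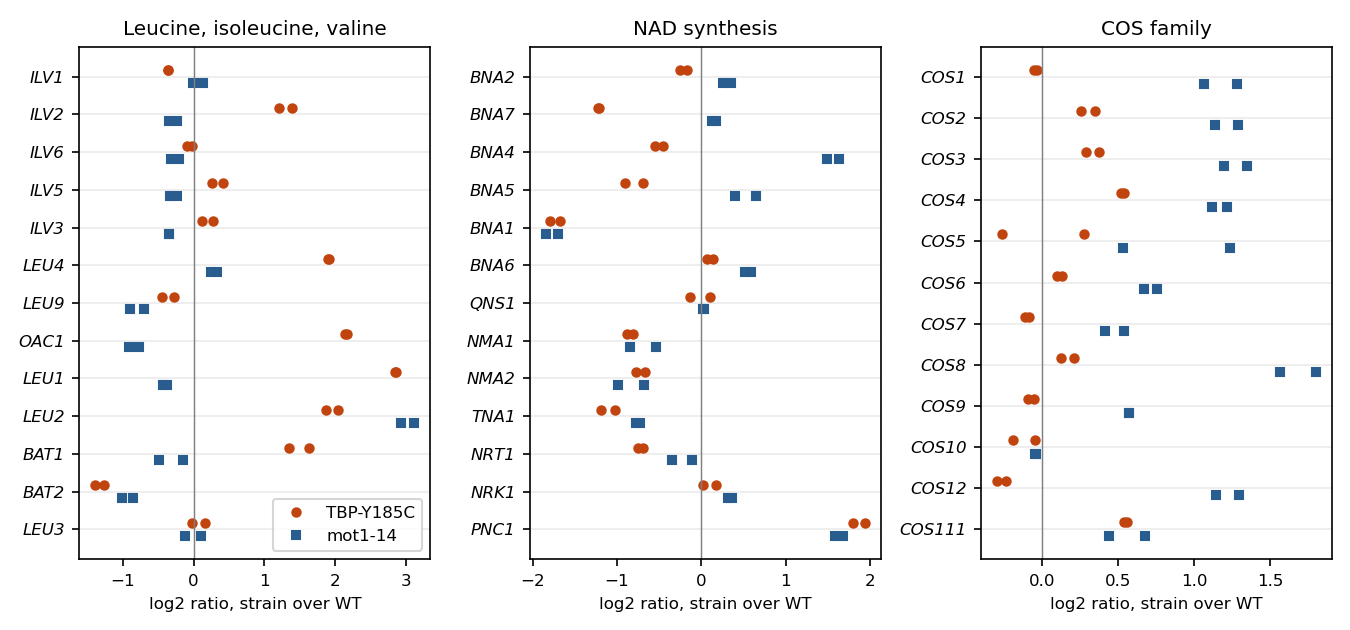
Log2 ratio over WT on each array for genes of leucine, isoleucine and valine synthesis, of NAD synthesis and of the COS family (circles TBP-Y185C, squares mot1-14, 2 arrays each; the line marks WT). LEU1, OAC1, LEU4, BAT1 and ILV2 are far to the right in TBP-Y185C, while BNA4, BNA7, BNA5 and most COS genes are to the right in mot1-14.

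NAD synthesis showed the reverse. Yeast makes NAD de novo from tryptophan through the kynurenine pathway encoded by the BNA genes. Of 14 genes of NAD synthesis and salvage tested, 8 were lower in TBP-Y185C, 1 was higher and 5 did not pass (median -0.30). BNA4, kynurenine 3-monooxygenase, was at -0.46 and -0.54 in TBP-Y185C and at 1.63 and 1.49 in mot1-14, so it was 4.17-fold higher in mot1-14 (log2 difference -2.06, SE 0.05, adjusted p = 1.2e-06). The 2 strains lay on opposite sides of WT on every array. BNA5, kynureninase, was at -0.90 and -0.70 in TBP-Y185C and at 0.40 and 0.65 in mot1-14 (difference -1.32, SE 0.05). BNA7, kynurenine formamidase, was at -1.21 and -1.22 in TBP-Y185C and at 0.17 and 0.12 in mot1-14 (difference -1.37, SE 0.05), and here mot1-14 was close to WT.

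The flanking steps moved less. BNA2, the tryptophan dioxygenase of the first step, fell by 0.52, and BNA6, quinolinate phosphoribosyltransferase, fell by 0.46. BNA1, 3-hydroxyanthranilate dioxygenase, was far below WT in both strains, at -1.67 and -1.79 in TBP-Y185C and at -1.70 and -1.84 in mot1-14, and its difference of 0.04 did not pass (SE 0.06, adjusted p = 0.647). PNC1, the nicotinamidase of the salvage route, was the 1 gene that rose (0.24), and stood far above WT in both strains (1.87 in TBP-Y185C and 1.63 in mot1-14). Without the term for dye orientation, 5 members in place of 8 were lower.

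The COS genes, a family of membrane proteins encoded near chromosome ends and involved in endosomal sorting, were lower in TBP-Y185C as a group. Of 12 tested, 10 were lower, none was higher and 2 did not pass (COS10 and COS111), with a median of -0.76. COS8 was at 0.21 and 0.12 in TBP-Y185C and at 1.56 and 1.80 in mot1-14 (difference -1.51, SE 0.11, adjusted p = 0.000112). COS12 was at -0.30 and -0.24 in TBP-Y185C and at 1.14 and 1.29 in mot1-14 (difference -1.48, SE 0.08, adjusted p = 3.46e-05), and the authors' processed log ratios gave it -3.02. COS1 was at -0.03 and -0.05 in TBP-Y185C and at 1.06 and 1.28 in mot1-14 (difference -1.21, SE 0.06). In all 3 the TBP-Y185C arrays sat close to WT and the mot1-14 arrays more than 2-fold above it. Over the family the median was 0.06 over WT in TBP-Y185C, 1.02 in mot1-14 and -0.16 in TBP-F207L. COS genes are near-identical to one another in places and their probes may share signal, so the members are not 12 independent measurements.

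The remaining large rises were spread over metabolism. SER3, phosphoglycerate dehydrogenase of serine synthesis, was at 2.73 and 2.66 in TBP-Y185C and at 0.62 and 0.54 in mot1-14, above WT on all arrays and 4.33-fold higher in TBP-Y185C (log2 2.11, SE 0.05, adjusted p = 1.2e-06). CIT2, peroxisomal citrate synthase and the standard reporter of mitochondrial retrograde signalling, was at 1.25 and 1.14 in TBP-Y185C and at -0.44 and -0.47 in mot1-14 (difference 1.65, SE 0.05). ISU2, a scaffold of mitochondrial iron-sulfur cluster assembly, was at 1.66 and 1.63 against -0.06 and 0.04 (difference 1.66, SE 0.10), and DRE2, of the cytosolic iron-sulfur assembly machinery, at 0.81 and 0.78 against -0.88 and -0.79 (difference 1.63, SE 0.06). TBP-Y185C was above WT for all 4 genes, whereas mot1-14 was above WT for SER3, near WT for ISU2 and below it for CIT2 and DRE2. TBP-F207L was above WT too, at 2.18 for SER3, 0.88 for CIT2, 1.52 for ISU2 and 0.76 for DRE2.

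GID10, a substrate receptor of the GID ubiquitin ligase, was at 2.45 and 2.53 in TBP-Y185C and at 0.67 and 0.88 in mot1-14 (difference 1.71, SE 0.17, adjusted p = 0.000347). Against TBP-F207L, where it averaged 1.44, it was 1.06 higher in TBP-Y185C (adjusted p = 0.00385). CLD1, a cardiolipin deacylase, was at 1.44 and 1.45 in TBP-Y185C and at -0.06 and -0.10 in mot1-14 (difference 1.53, SE 0.05). TBP-Y185C thus stood away from WT while mot1-14 was near it. With TBP-F207L at 1.17, CLD1 was 0.28 higher in TBP-Y185C than there (adjusted p = 0.00481).

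Among the largest falls, YIR043C, which has no standard name in the reference table, was at -0.02 and -0.09 in TBP-Y185C and at 2.01 and 2.14 in mot1-14 (difference -2.13, SE 0.06, adjusted p = 3.8e-06). CWP1, a cell wall mannoprotein, was at -0.76 and -0.86 in TBP-Y185C and at 0.88 and 0.77 in mot1-14 (difference -1.63, SE 0.05). HSP31, a stress-inducible glyoxalase and chaperone, was at -0.47 and -0.38 against 0.91 and 1.04 (difference -1.40, SE 0.05). All 3 were raised in mot1-14, and in TBP-Y185C they were at or below WT.

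IRC7, a cysteine desulfhydrase, had the other pattern: it was at -1.82 and -1.47 in TBP-Y185C and at -0.24 and 0.23 in mot1-14 (difference -1.64, SE 0.06). It was near WT in mot1-14 and low in TBP-Y185C, and averaged -1.65 in TBP-F207L. YLL053C, an aquaporin-like reading frame, was at -1.33 and -1.14 in TBP-Y185C and at 0.15 and 0.34 in mot1-14 (difference -1.48, SE 0.05). FSH1, a serine hydrolase, was at -0.61 and -0.77 against 1.00 and 0.61 (difference -1.50, SE 0.06), and PCL5, a Pho85 cyclin that promotes turnover of the activator Gcn4, at -0.98 and -0.87 against 0.39 and 0.52 (difference -1.38, SE 0.05). YHR033W stayed above WT in both strains, at 0.44 and 0.45 in TBP-Y185C and at 1.73 and 1.88 in mot1-14 (difference -1.36, SE 0.06).

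**Figure D3:**
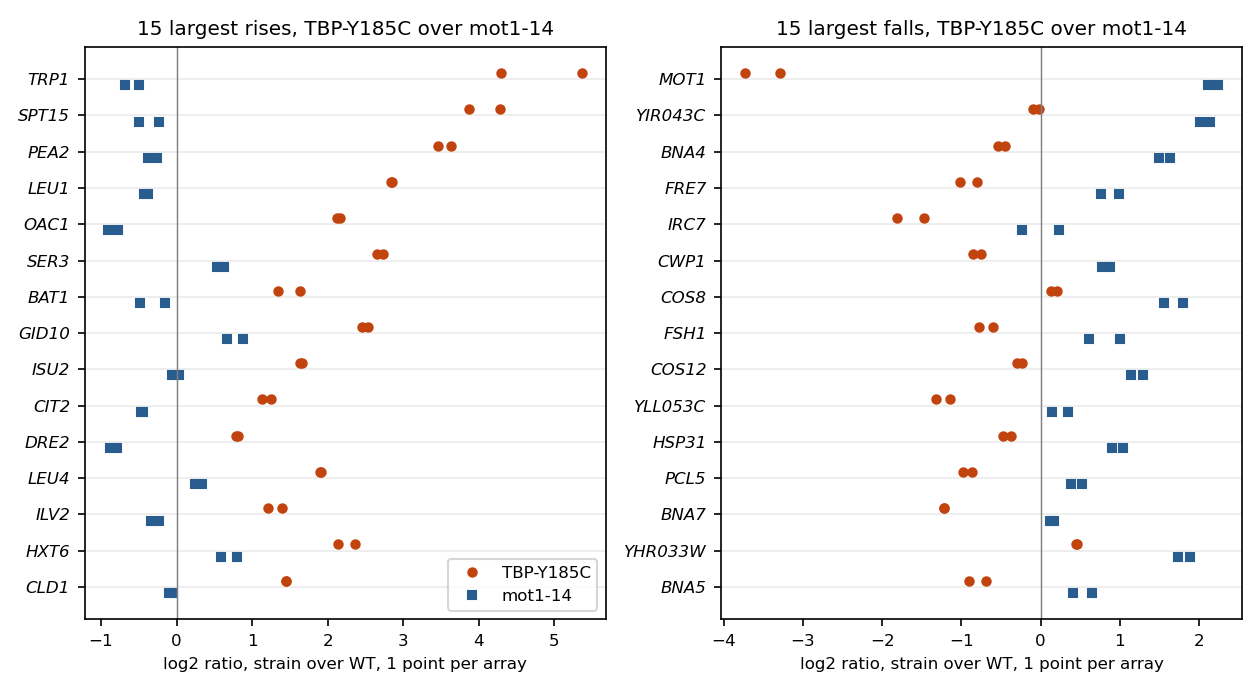
Log2 ratio over WT on each array for the 15 largest rises (left) and 15 largest falls (right) of TBP-Y185C over mot1-14 (circles TBP-Y185C, squares mot1-14, 2 arrays each; the line marks WT). The arrays of the 2 strains do not overlap for any of these 30 genes, as for most genes that passed. MOT1 is the one gene low in TBP-Y185C and high in mot1-14 by more than 2-fold on each side of WT.

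Genes of iron and copper uptake moved in both directions. Yeast takes up copper through Ctr1 after reduction by Fre proteins, and iron through the Fet3 and Ftr1 oxidase and permease pair or through siderophore carriers. Of 24 genes of iron and copper uptake, 12 were higher (50%), 5 were lower (20.8%) and 7 did not pass (median 0.14). The shares over all genes tested were 25.7% and 24.5%, so calls in both directions are not particular to this list. Without the dye term 6 in place of 12 were higher. HMX1, haem oxygenase, was at 2.05 and 2.06 in TBP-Y185C and at 0.57 and 0.64 in mot1-14 (difference 1.45, SE 0.05), and TIS11, an mRNA-binding protein of the iron-deprivation response, at 1.40 and 1.34 against 0.18 and 0.32 (difference 1.12, SE 0.11). FET3 was 0.77 and the siderophore carrier SIT1 0.65 higher. FET3 stood near WT in TBP-Y185C (-0.06) and below it in mot1-14 (-0.82).

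Among the lower members, the copper transporter gene CTR1 was at -0.83 and -0.79 in TBP-Y185C and at 0.35 and 0.26 in mot1-14 (difference -1.12, SE 0.05, adjusted p = 1.88e-05). The copper chaperone ATX1 was lower too, at -0.98 and -1.02 in TBP-Y185C and at -0.19 and -0.33 in mot1-14 (difference -0.74, SE 0.05). FRE7, one of the largest falls and not a member of that list, is a putative reductase induced when copper is low. It was at -1.02 and -0.81 in TBP-Y185C and at 0.76 and 0.99 in mot1-14 (difference -1.79, SE 0.08, adjusted p = 1.57e-05). These 3 genes were below WT on both TBP-Y185C arrays.

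Genes of glucose uptake also moved in both directions. Of 20 hexose transporters and glucose sensors, 8 were higher (40%), 4 were lower (20%) and 8 did not pass. Over all genes tested 25.7% were higher and 24.5% lower, so calls in both directions are not particular to this list. HXT6 and HXT7, high-affinity transporters with nearly the same sequence, were at 2.13 and 2.36 and at 2.30 and 2.60 in TBP-Y185C, against 0.59 and 0.80 and 0.86 and 0.99 in mot1-14. Their differences of 1.55 (SE 0.08) and 1.52 (SE 0.12) are one observation in effect, since the probes may share signal. HXT5, a transporter of slow-growing cells, was at 1.40 and 1.46 in TBP-Y185C and at 0.29 and 0.34 in mot1-14 (difference 1.12, SE 0.08), with 2.10 from the authors' processed log ratios. HXT2 was 0.62 higher.

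HXT4 was at -0.89 and -0.60 in TBP-Y185C and at 0.30 and 0.54 in mot1-14 (difference -1.17, SE 0.05, adjusted p = 1.12e-05), and the low-affinity transporter HXT3 at -0.97 and -0.89 against -0.17 and -0.16 (difference -0.76, SE 0.05). For both the TBP-Y185C arrays were lower than every mot1-14 array, and such gaps were common among genes that passed. In TBP-F207L these 2 genes were lower still, at -1.75 and -1.88, and TBP-Y185C exceeded TBP-F207L by 1.01 and 0.96 (adjusted p = 0.00016 and 0.000164). Without the dye term, or without the first TBP-Y185C array, 5 of the 20 genes were higher in place of 8, and without the dye term 2 were lower in place of 4.

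Of 21 genes of glycolysis and fermentation, 14 were lower in TBP-Y185C, 3 were higher and 4 did not pass (median -0.35). In WT minus WT the list had a median of 0.12. Since WT is divided out, a positive WT difference adds to a fall between strains. HXK1, a hexokinase that is induced when glucose runs low, was at 0.91 and 1.18 in TBP-Y185C and at 1.98 and 2.31 in mot1-14, above WT in both strains (difference -1.10, SE 0.07, adjusted p = 7.91e-05). PYK2, the minor pyruvate kinase, fell by 0.67 and the main one, CDC19, fell by 0.46, while phosphoglucose isomerase, PGI1, was 0.55 higher. ADH1, alcohol dehydrogenase, was at -0.13 and -1.07 in TBP-Y185C and at -0.07 and 0.14 in mot1-14. The TBP-Y185C arrays disagreed for ADH1, and its difference of -0.63 did not pass (SE 0.26, adjusted p = 0.0799). Without the dye term 4 members in place of 14 were lower, so the group's count depends on it. For CDC19 the WT channels differed by 0.23, which adds to the fall in this way, and without division by WT the difference was -0.23.

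Peroxisomal beta-oxidation of fatty acids, a pathway repressed by glucose, had 10 of 15 genes higher in TBP-Y185C and none lower (median 0.29), with 5 higher without the dye term and 6 with median centring in place of loess. SPS19, dienoyl-CoA reductase, was at 2.07 and 1.97 in TBP-Y185C and at 1.30 and 1.22 in mot1-14 (difference 0.76, SE 0.08). CTA1, peroxisomal catalase, was at 0.98 and 0.93 against 0.19 and 0.30 (difference 0.71, SE 0.08), and ECI1, enoyl-CoA isomerase, was 0.57 higher. Thiolase, POT1, was at 2.59 and 2.43 in TBP-Y185C and at 1.28 and 1.42 in mot1-14 (difference 1.16, SE 0.27, adjusted p = 0.0106). Without the first TBP-Y185C array POT1 was at 0.75 and without the second mot1-14 array at 0.97, and it passed in neither case.

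Chaperone genes were higher in TBP-Y185C, on top of rises over WT in both strains. Of 35 genes, 25 were higher, 2 were lower and 8 did not pass (median 0.42, with medians over WT of 0.86 in TBP-Y185C and 0.49 in mot1-14). BTN2, which sorts misfolded proteins, was at 2.62 and 2.66 in TBP-Y185C and at 1.33 and 1.40 in mot1-14 (difference 1.28, SE 0.17). CPR6, a cyclophilin that binds Hsp90, was at 1.35 and 1.77 against 0.30 and 0.68 (difference 1.07, SE 0.05), and SBA1, another Hsp90 partner, at 0.99 and 1.28 against 0.03 and 0.49 (difference 0.87, SE 0.06). HSP42, a small heat shock protein, reached 3.74 and 3.56 in TBP-Y185C and 2.59 and 2.72 in mot1-14 (difference 0.99, SE 0.12), and HSP78, the mitochondrial disaggregase, differed by 0.97 (SE 0.08). As for most genes that passed, the arrays of the 2 strains did not overlap for these 5 genes. HSP31, described above, was the largest exception to the direction.

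Of 33 proteasome genes and their activator, 23 were higher, 2 were lower and 8 did not pass (median 0.24). RPN4, the transcription factor that drives proteasome genes, was at 1.16 and 1.23 in TBP-Y185C and at 0.29 and 0.32 in mot1-14 (difference 0.89, SE 0.05, adjusted p = 3.42e-05). RPN8, a lid subunit, was 0.65 higher and PRE6, a core subunit, 0.53 higher. The ubiquitin receptor RPN10 fell by 0.37 and, at -0.83 over WT, was also below TBP-F207L at 0.06 (difference -0.89, adjusted p = 0.000685). The count of higher members was 15 without the first TBP-Y185C array, 15 without the first mot1-14 array and 10 without the dye term.

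Genes of sulfate assimilation and methionine synthesis were mostly higher: 24 of 32 rose, 1 fell and 7 did not pass (median 0.34, and 14 higher without the dye term). MET17, O-acetylhomoserine sulfhydrylase, was at 1.64 and 1.41 in TBP-Y185C and at 0.76 and 0.66 in mot1-14 (difference 0.81, SE 0.05, adjusted p = 7.91e-05). MET32 and MET4, transcription factors of the pathway, were 0.88 (SE 0.14) and 0.70 (SE 0.07) higher, the sulfate permease SUL2 0.73 and methylenetetrahydrofolate reductase, MET13, 0.72. MET28, a cofactor of Met4, was at 2.08 and 2.17 in TBP-Y185C and at 1.21 and 1.26 in mot1-14 (difference 0.89), and without the first TBP-Y185C array its 0.75 did not pass (adjusted p = 0.0589). For these genes the TBP-Y185C arrays were above the mot1-14 arrays throughout, and such gaps were common among genes that passed.

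Cytoplasmic ribosomal protein genes were lower in TBP-Y185C by a small and widespread amount. Of 137 tested, 88 were lower, 5 were higher and 44 did not pass, with a median difference of -0.28 and medians over WT of -0.39 in TBP-Y185C and -0.11 in mot1-14. The fall was largest for RPS28B, at -1.18 and -1.16 in TBP-Y185C and -0.42 and -0.24 in mot1-14 (difference -0.84, SE 0.06), and for RPS8A, at -1.68 and -1.65 against -0.94 and -0.77 (difference -0.81, SE 0.07). RPL34A was also lower (-0.77), and none of the 137 reached 2-fold. In WT minus WT the same list had a median of 0.04. Without the dye term 41 in place of 88 were lower. Many of these genes are pairs of near-identical copies whose probes may share signal.

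Ribosome biogenesis genes did not share this direction. Of 101 tested, 31 were higher (30.7%) and 18 lower (17.8%), with a median of 0.07. The shares over all genes tested were 25.7% and 24.5%. Ribosome biogenesis genes were below WT in both strains, with medians of -0.65 in TBP-Y185C and -0.66 in mot1-14. The lower members were not a stable count: they numbered 3 with median centring, 8 with the deposited log ratios, 1 without the dye term, and 5, 8 and 5 without the first TBP-Y185C, first mot1-14 and second mot1-14 array. The higher members numbered 15 without the dye term. Mitochondrial ribosomal protein genes had 28 of 69 lower (40.6%) and 9 higher (13%), with a median of -0.10. The count of lower members was 4 with median centring in place of loess, 5 without the dye term, and 13, 15 and 17 without the first TBP-Y185C, second TBP-Y185C and first mot1-14 array, so it was not stable.

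**Figure D4:**
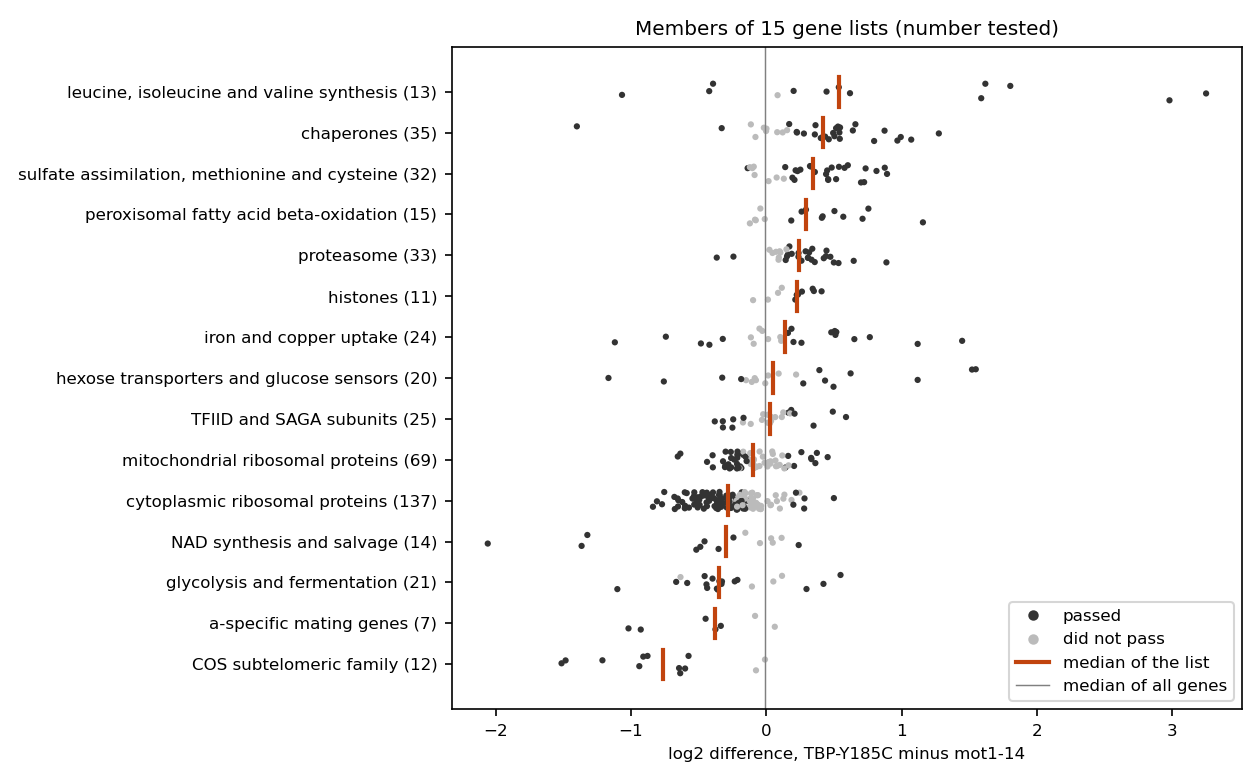
Log2 difference TBP-Y185C minus mot1-14 of each tested member of 15 gene lists (dark points passed, pale points did not; the thick bar is the list's median and the thin line the median of all genes). MOT1, SPT15, TRP1 and PEA2 belong to none of the lists drawn. Medians run from 0.54 for leucine, isoleucine and valine synthesis to -0.76 for the COS family.

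Apart from MOT1 and SPT15, no gene on the list of TBP and its direct regulators passed by 2-fold or more. Of the 20 genes, with MOT1 and SPT15 included, 7 were higher (35%), 6 were lower (30%) and 7 did not pass. The shares over all genes tested were 25.7% and 24.5%. Without the dye term 2 were higher and 3 lower, and 3 were lower with median centring or without the first TBP-Y185C array. NCB2 and BUR6 encode the subunits of negative cofactor 2, which holds TBP on DNA and blocks the next assembly step. NCB2 was at 0.14 and 0.11 in TBP-Y185C and at 0.92 and 0.66 in mot1-14 (difference -0.66, SE 0.07, adjusted p = 0.000451). BUR6 was at 1.34 and 1.44 in TBP-Y185C and at 1.20 and 1.35 in mot1-14, and its difference of 0.12 did not pass (adjusted p = 0.103). The partner genes therefore stood apart: BUR6 was high over WT in both strains and NCB2 mainly in mot1-14.

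In the coactivators TFIID and SAGA, which deliver TBP to promoters, 6 of 25 subunit genes were higher, 6 were lower and 13 did not pass (median 0.03), shares close to those over all genes. With median centring 8 were higher and 0 lower, and without the dye term 2 were higher and 1 lower. TAF12, a subunit of both complexes, was 0.49 higher (SE 0.05), at 0.14 in TBP-Y185C and -0.35 in mot1-14. TAF9, also in both, fell by 0.38 (SE 0.05), a change that did not pass with median centring in place of loess (-0.25). SPT20, a SAGA core subunit, was 0.59 higher (SE 0.12, adjusted p = 0.0069) and did not pass without the first TBP-Y185C array (0.49) or the second mot1-14 array (0.43). Higher members numbered 1, 3 and 2 in place of 6 without the first TBP-Y185C, second TBP-Y185C and second mot1-14 array, and lower members 1, 3 and 3 in place of 6 without the first TBP-Y185C, first mot1-14 and second mot1-14 array.

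Mating-type genes served as a check on cell type and also moved. Of 7 a-specific genes, 5 were lower in TBP-Y185C than in mot1-14 and 2 did not pass (median -0.38), and 3 were lower with median centring or without the dye term. MFA2, a precursor of the pheromone a-factor, was at 0.24 and 0.23 in TBP-Y185C and at 1.36 and 1.15 in mot1-14 (difference -1.02, SE 0.06, adjusted p = 5.8e-05). ASG7, an a-specific regulator of pheromone signalling, was at 0.05 and -0.10 in TBP-Y185C and at 1.02 and 0.79 in mot1-14 (difference -0.93, SE 0.05, adjusted p = 4.2e-05). Both were close to WT in TBP-Y185C, whereas in TBP-F207L they averaged 0.74 and 1.27 (TBP-Y185C minus TBP-F207L -0.50 and -1.29, adjusted p = 0.00156 and 0.00016). Of 5 alpha-specific genes, 1 was lower and 4 did not pass.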

How the data were processed

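The scanner files came from Agilent Feature Extraction 7.5.1 and give mean and local background intensity for both channels of each spot, without background subtraction, per the file headers. Their own log10 ratios of red to green use processed signals that the authors' software detrended and dye-normalized. The authors' table for the whole series was matched to these and holds uncentred log2 ratios of red to green.

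Intensities were background-corrected by normexp (offset 50, which understates changes of dim genes) and loess-normalized in limma 3.58.1 under R 4.3.3. Loess gave no weight to the 544 control spots. For WT minus WT and for differences without division by WT, average intensities were then quantile-normalized between arrays and single channels were used. Control and outlier spots were dropped (outliers were 3.22% on the first mot1-14 array and at most 0.341% on the others), saturated spots were kept and repeat spots averaged. Of 6256 probes, 6234 were well above background on at least 2 arrays, and 108 of these lacked a value on an array of the comparison. Current symbols and gene neighbours came from a table of assembly R64, in which 5756 probes matched.

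A limma model over all 6 arrays had a coefficient per mutant, signed by dye orientation, and a dye intercept, with 2 residual and 4.95 prior degrees of freedom. It gave every adjusted p-value (Benjamini-Hochberg over 6126 genes). Array numbers within a strain stand for dye orientation, per the labels, so that intercept is also the replicate block.

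Genes were named as the 15 largest rises and falls that passed with 1 sign in both orientations, strain-defining and marker genes, and up to 6 passing members of a list by size, plus members needed to show a pathway. The comparison, 45 gene lists and their members were chosen with earlier results of these data known. Lists are described by counts and medians. Alternatives covered background, scaling, filters, the dye term, the deposited ratios and each array left out. No sequences were used here. The code was tested on simulated data.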

Additional observations from a re-analysis of the deposited data

Results flagged for a closer look

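Of 265 named genes, 9 were picked because both bypass strains passed against mot1-14 in opposite directions and the difference between them passed (limma, adjusted p at most 0.00116 for each). Passing is thus part of the choice and no separate support, and the share over all genes was not counted. Among a-specific mating genes, MFA1, a precursor of a-factor, differed from mot1-14 by -0.34 in TBP-Y185C and by 0.97 in TBP-F207L, a difference of -1.302. MFA1 no longer passed between TBP-Y185C and mot1-14 without the first mot1-14 array, without either TBP-Y185C array, without the dye term (adjusted p = 0.42) or with median centring (adjusted p = 0.125). ASG7 was at -0.93 in TBP-Y185C and 0.36 in TBP-F207L, a difference of -1.289, and STE6, the exporter of a-factor, at -0.38 and 0.40, a difference of -0.7797. With median centring STE6 did not pass between TBP-Y185C and mot1-14 (-0.24).

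Lipid genes ran the other way. OPI3, a methyltransferase of phosphatidylcholine synthesis, differed from mot1-14 by 0.35 in TBP-Y185C and by -0.32 in TBP-F207L, a difference of 0.6713. ERG3, a desaturase of ergosterol synthesis, was at 0.42 and -0.23, a difference of 0.6497, and ITR1, an inositol transporter, at 0.28 and -0.15, a difference of 0.4225. The remaining genes belong to other pathways. ADH5, an alcohol dehydrogenase, was at 0.19 in TBP-Y185C and -0.71 in TBP-F207L, a difference of 0.8996. ADH5 passed between TBP-Y185C and mot1-14 only narrowly (adjusted p = 0.0424), and did not pass without the first TBP-Y185C array (0.09), the first mot1-14 array (0.17) or the second mot1-14 array (0.21). LYS9, an enzyme of lysine synthesis, was at 0.27 in TBP-Y185C and -0.36 in TBP-F207L, a difference of 0.6286, and GLY1, threonine aldolase, at 0.35 and -0.20, a difference of 0.5517. LYS9 did not pass between TBP-Y185C and mot1-14 without the second TBP-Y185C array or, like GLY1, ITR1, OPI3 and ADH5, without the dye term, and ADH5 also did not pass with an offset of 10 or with the deposited ratios. All of these comparisons share the mot1-14 arrays.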

How the results depend on the processing

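Without the replicate block, which here is the term for dye orientation, 535 genes were higher and 435 lower in TBP-Y185C, in place of 1577 and 1500. Leaving out one array at a time gave 810 to 1824 higher and 762 to 1765 lower genes. The lowest counts came without the first TBP-Y185C array (810 and 762). The other arrays of the comparison gave 1065 and 928 (second TBP-Y185C), 1120 and 933 (first mot1-14) and 1006 and 955 (second mot1-14). The 2-fold counts, 37 higher and 36 lower, ranged from 30 to 50 and from 34 to 38 in the same fits. They were 72 and 62 with the deposited log ratios and 73 and 61 with the series table, and each held 36 of the 37 rises and all 36 falls. Median centring gave 47 and 27 such genes, which held 36 of the rises and 25 of the falls, and 1370 higher and 1036 lower genes in all. The cause of these shifts was not tested. PAU2 was at 0.02624 without division by WT, an alternative chosen after seeing the data, against -0.25 with it. Of 720 recomputed list medians, 199 moved by more than the spread between orientations, and their signs were not compared. Of 4498 recomputed values of 265 listed genes, 275 no longer passed, and the 30 largest changes kept their direction and, where tested, their call. The slide could not be fitted as a block because each holds 1 mutant, and TATA summaries were not run.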

Other observations

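Arginine and phosphate genes moved in both directions, as did genes at large, of which 25.7% were higher and 24.5% lower. Of 10 arginine synthesis genes, 3 were higher in TBP-Y185C than in mot1-14 (30%), 4 were lower (40%) and 3 did not pass. ARG3, ornithine carbamoyltransferase, fell by 0.95, ARG8, acetylornithine aminotransferase, fell by 0.91 and ARG56 (ARG5,6) fell by 0.79. Of 18 phosphate-regulated genes, 10 were higher (55.6%) and 3 lower (16.7%). SPL2, an inhibitor of low-affinity phosphate uptake, rose by 1.15, VTC1, of the polyphosphate polymerase, by 0.85, and the transporters PHO84 and PHO89 by 0.67 and 0.62. The lower 3 were the secreted acid phosphatases PHO12 (-1.01), PHO11 (-0.61) and PHO5 (-0.46), which are similar in sequence and may share signal. Without the second TBP-Y185C array PHO12 was at -0.62.

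Genes of meiosis and sporulation, which are normally silent in growing haploids, were higher in 9 of 18 cases and lower in 1. CDA1, which deacetylates chitin in spore walls, was at 2.46 and 2.61 in TBP-Y185C and at 1.25 and 1.16 in mot1-14 (difference 1.33, SE 0.08, adjusted p = 5.58e-05). SPS4 rose by 0.57, NDT80, the activator of middle sporulation genes, by 0.53 and RED1, of the meiotic chromosome axis, by 0.52. Histone genes were higher in 7 of 11 cases and lower in none (median 0.23), with 1 higher without the dye term, 2 without the first TBP-Y185C array and 4 without the first mot1-14 array. Of 30 seripauperin and anaerobic mannoprotein genes, close homologs whose probes may share signal, 14 were lower and 1 was higher (median -0.15). Their WT minus WT median was 0.11, and a positive WT difference adds to a fall between strains. The lower ones numbered 1 without the dye term, 2 with median centring, and 3, 7 and 2 without the first TBP-Y185C, second TBP-Y185C and first mot1-14 array.

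Some results were looked at after values were seen. The 5 outermost genes of each chromosome end in the reference assembly gave 153 tested genes, of which 58 were lower (37.9%) and 13 higher (8.5%), with a median of -0.12. Without COS genes, 49 of 143 were lower (34.3%) and 13 higher (9.09%), against 24.3% and 27.8% of 5467 genes placed elsewhere. The lower ones still held members of other families, such as the seripauperin genes PAU11 and PAU20 and the repeated gene YRF1-3. Their probes may share signal, so these genes are not independent measurements, and the shares were not recomputed under other settings. Beside IRC7, HXK1 and PHO12, described above, the lower end genes included YIR042C (-1.18). OLI1, a mitochondrially encoded subunit of ATP synthase, was at -1.32 and -0.96 in TBP-Y185C and at 0.04 and 0.22 in mot1-14 (difference -1.27, SE 0.07). Of 13 mitochondrial probes tested 4 were lower (30.8%) and 1 was higher (7.69%), against 24.5% and 25.7% over all genes tested. Beyond the 15 largest, 22 rises ranged from 1.03 to 1.52 and included the arginine catabolic enzyme CAR2 (1.32), the acetaldehyde dehydrogenase ALD5 (1.37), the amino acid permeases BAP2 (1.07) and DIP5 (1.04) and carbonic anhydrase NCE103 (1.05). The 21 further falls included the polyamine exporter TPO2 (-1.16) and the aquaporin AQY2, which was at -1.14 and -0.69 in TBP-Y185C and at -0.21 and 0.38 in mot1-14.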
